A study of Mus musculus with 18 samples.

Results

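The genes described here are 33 genes of glycolysis, the fate of its end products and the pentose phosphate pathway, of 24369 genes listed in the table of gene expression. They were chosen by gene symbol, with no measured value in the rule. The list holds glucose transporters, hexokinases, the enzymes from glucose 6-phosphate to pyruvate, lactate dehydrogenases, monocarboxylate transporters, pyruvate dehydrogenase kinases and the enzymes of both branches of the pentose phosphate pathway. RNA-seq was carried out in mouse embryonic stem cells (mESCs) of the E14 background. In the time course, Rex1GFPd2-Cas9 cells, which carry a destabilised GFP reporter at *Rex1* (*Zfp42*, a gene of naive pluripotency) and *Cas9* at *Rosa26*, were collected on day 0 and on days 1, 2 and 3 of differentiation, with 3 libraries each. By the methods of the paper, differentiation was induced in a medium without LIF and without inhibitors of MEK and Gsk3. The part of the medium in the changes over the days was not tested. In the second experiment, GFP+ cells were sorted from 3 genotypes with 2 libraries each, namely Rex1GFPd2-Cas9 (called wild-type here), Rex1GFPd2-Cas9 Nprl2-/- and Rex1GFPd2-Cas9 Tsc2-/-. All of these lines carry the reporter and *Cas9*, and each KO line was a clone in which a pair of gRNAs had removed an exon of both alleles. *Nprl2* encodes a subunit of GATOR1, which restrains mTORC1 when amino acids are low, and *Tsc2* encodes a subunit of the TSC complex, which restrains mTORC1 downstream of growth factor signals. The GFP+ cells had been grown in serum and LIF on a layer of growth-arrested mouse fibroblasts. The labels do not state whether libraries of a group came from separate cultures, so the p-values measure the spread between these libraries, which may be technical.

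Glycolysis splits glucose into pyruvate through a chain of cytosolic enzymes, with hexokinase and phosphofructokinase as its regulated early steps. Pyruvate is then either reduced to lactate by lactate dehydrogenase and exported by monocarboxylate transporters or oxidised in mitochondria, a choice on which the pyruvate dehydrogenase kinases act by switching off pyruvate dehydrogenase. The pentose phosphate pathway branches off at glucose 6-phosphate, and its oxidative branch makes NADPH while its non-oxidative branch interconverts sugars and yields ribose for nucleotides. Naive mESCs are known to use both glycolysis and respiration, and to rely more on glycolysis after leaving the naive state.

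Estimated counts came to between 12503005 and 15305054 per library in the time course and between 8610357 and 13780861 in the GFP+ libraries, and all 33 genes passed the filter on low counts in both. The labelled states were checked against markers. Summed over 7 genes of naive or general pluripotency, the level was 4527 to 4736 TPM (a level corrected for transcript length and library size) on day 0 and 1275 to 1557 TPM on day 3, while the sum of 4 formative genes was 103 to 129 TPM on day 0 and 1496 to 1777 TPM on day 2. In the KO cells, *Nprl2* was at 8.09 and 8.65 TPM against 16.1 and 17.0 in wild-type, and *Tsc2* was at 18.8 and 20.3 TPM against 44.98 and 44.9. This is a partial check, since exons outside the deletion also give counts. Summed over 8 fibroblast markers, the GFP+ libraries held 48.3 to 193 TPM, lowest in *Tsc2* KO library 2, and the time course 9.37 to 41.9 TPM. Day 0 library 3 was the lowest of its group for 23 of the 33 genes and day 0 library 2 the highest for 21. The same count was not made over all genes. The time course and the GFP+ libraries were not compared in level, because reads of the same gene fell on different transcript models in each. *Gapdh* reads, for example, were assigned to NM_001289726.1 at 98.5% to 99.1% in the time course but at 11.3% to 26.3% in GFP+ cells.

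Together the 33 genes made up a larger part of the measured transcripts on days 2 and 3 than before. Their summed TPM was 1.64% ± 0.0984 (SD, n = 3) of all TPM on day 0, 1.82% ± 0.0382 on day 1, 2.28% ± 0.0920 on day 2 and 2.18% ± 0.0374 on day 3, and the libraries of days 2 and 3 lay above all of those of days 0 and 1. Among GFP+ cells the sum came to 1.44% and 1.47% in wild-type cells, 1.47% and 1.52% without *Nprl2* and 1.49% and 1.57% without *Tsc2*. *Gapdh* alone made up 35.4% to 46.0% of the sum across the 18 libraries, so genes at low levels weighed little in it. *Gapdh*, which makes 1,3-bisphosphoglycerate, had the highest level of the 33 genes in every library, with 7092 to 7461 TPM on day 0 and 7956 to 8243 TPM on day 3, and was called, of the 7 comparisons, only on day 1 against day 0 (log2 fold change 0.21 ± 0.052, adjusted p = 0.00190). These are bulk samples, in which fewer cells of a type and less RNA per cell cannot be told apart.

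Calls below are adjusted p under 0.05 from the quasi-likelihood test of edgeR, adjusted by the Benjamini-Hochberg method over all genes tested, 14382 in the time course and 13725 in GFP+ cells, and fold changes are on the log2 scale with their SE. From day 0 to day 1, 17 of the 33 genes were higher and 8 lower, where 30.1% of all genes tested were higher and 30.8% lower. From day 1 to day 2, 14 of the 33 genes were higher and 11 lower, where 32.5% of all genes tested were higher and 29.6% lower. From day 2 to day 3, 6 of the 33 genes were higher and 7 lower, where 15.9% of all genes tested were higher and 15.6% lower. Over the whole course, on day 3 against day 0, 21 of the 33 genes were higher and 9 lower, where 35.0% of all genes tested were higher and 35.9% lower. The median log2 fold change of the 33 genes was 0.21, 0.12, -0.049 and 0.36 in these comparisons, beside 0.00065, 0.022, -0.0084 and -0.013 over all genes tested. Expressed as log2(TPM + 1) and tested with limma, day 2 against day 1 gave 18 higher and 9 lower genes, on a scale that shifted the median of all genes to 0.11 and that of the 33 genes to 0.23, with 5639 higher and 3203 lower calls over all genes in place of 4677 and 4254. The first 2 intervals had 25 calls each and the last 13. Of the 33, 4 genes fell on day 1 and rose on day 2 (*Slc2a3*, *Gpi1*, *Aldoc* and *Eno2*), 6 rose and then fell (*Pfkm*, *Eno3*, *Pdk1*, *G6pdx*, *Pgd* and *Tkt*), 5 rose on both days (*Aldoa*, *Tpi1*, *Eno1*, *Pkm* and *Ldha*), 3 fell on both (*Hk2*, *Pfkp* and *Ldhb*) and 5 passed the test on day 2, as higher, but not on day 1 (*Slc2a1*, *Pfkl*, *Pfkfb3*, *Pgk1* and *Bpgm*). The same patterns were not counted over all genes. Both intervals use the day 1 libraries, so the 2 changes of a gene are not independent. Without day 0 library 3, 15 genes were higher and 9 lower on day 1 against day 0, and 21 and 8 on day 3 against day 0. The calls of *Tpi1* on day 1 and *Aldoa* on day 2 were lost without day 0 library 1, day 0 library 3, day 1 library 1, day 1 library 2 or day 2 library 3 (adjusted p = 0.0552 to 0.0987) and without day 2 library 3 (adjusted p = 0.0508).

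**Figure D1:**
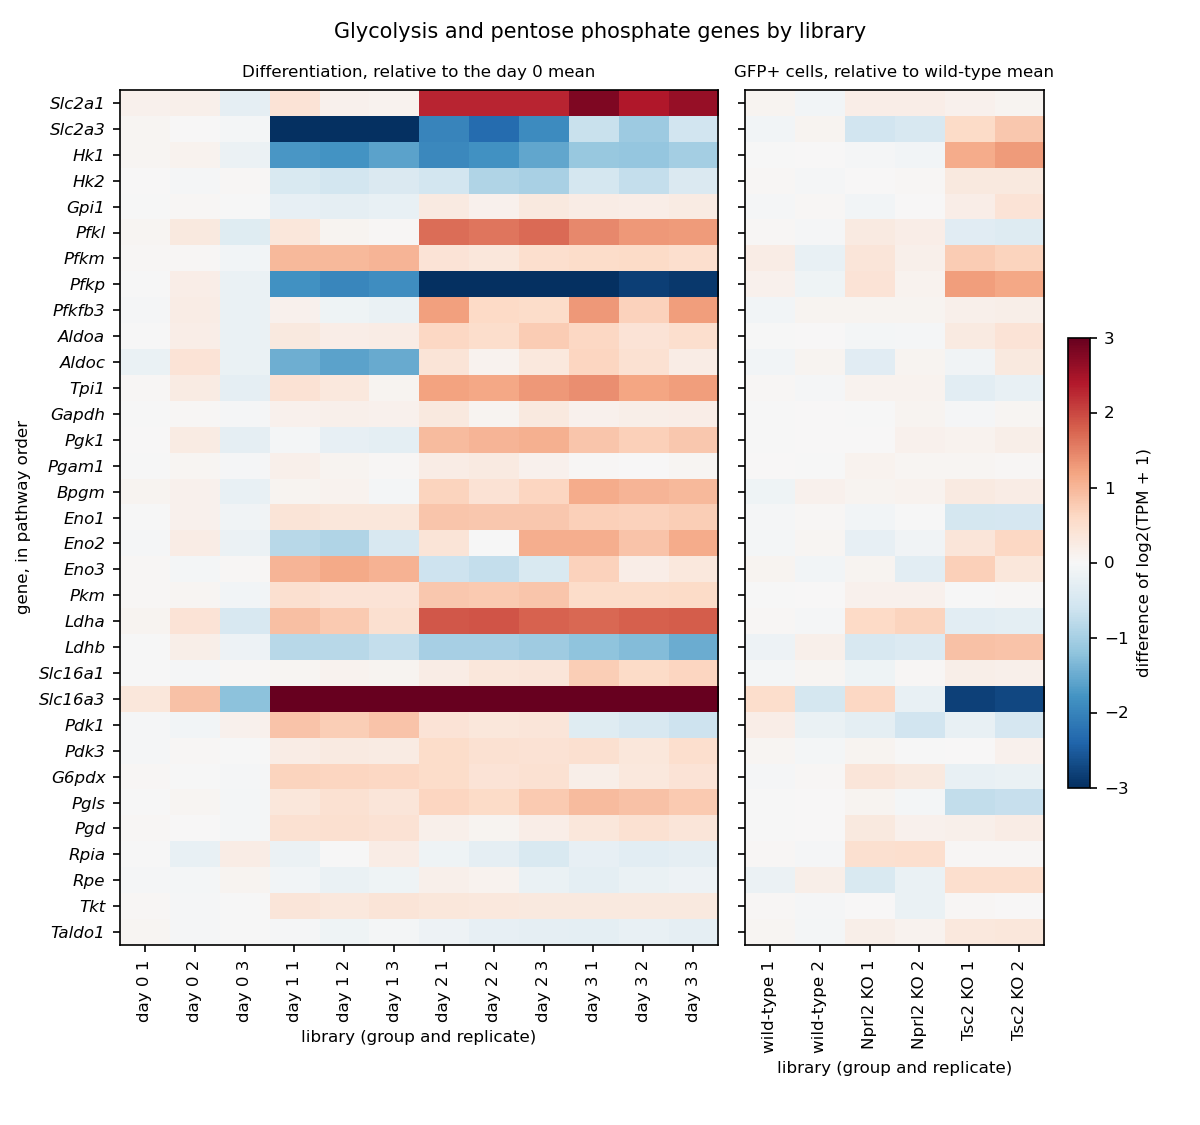
Heat map of the 33 genes (rows, in pathway order) in each library (columns). Colour is the difference of log2(TPM + 1) from the mean of the 3 day 0 libraries (left) or the 2 wild-type GFP+ libraries (right), with colours saturating at 3 in either direction. *Slc2a1*, *Pfkl*, *Tpi1*, *Ldha* and *Slc16a3* were higher and *Slc2a3*, *Hk1*, *Pfkp* and *Ldhb* lower in every day 3 library than in any day 0 library, and *Hk1*, *Pfkp* and *Ldhb* were higher in both *Tsc2* KO libraries than in either wild-type library.

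Of the glucose transporters, *Slc2a3* fell on day 1 and *Slc2a1* rose on day 2. *Slc2a3*, which encodes the high-affinity transporter GLUT3, was at 533, 516 and 490.1 TPM in the 3 day 0 libraries, 46.5, 39.6 and 49.97 on day 1, 129.7, 104 and 137 on day 2 and 324, 239.5 and 341 on day 3. Every day 1 library lay below every other library of the course, and the day 3 libraries remained below those of day 0. The log2 fold change was -3.43 ± 0.14 (adjusted p = 1.08e-09) from day 0 to day 1, a 10.8-fold drop, followed by 1.33 ± 0.13 (adjusted p = 4.30e-06) from day 1 to day 2 and 1.25 ± 0.13 (adjusted p = 4.45e-05) from day 2 to day 3. *Slc2a1*, which encodes GLUT1, was at 170.0, 173 and 130.5 TPM in the 3 day 0 libraries, 209.7, 172 and 168 on day 1, 766, 761 and 770.4 on day 2 and 1099.5, 838 and 959 on day 3. Its day 0 and day 1 libraries overlapped (log2 fold change 0.29 ± 0.12, adjusted p = 0.0643), and all libraries of days 2 and 3 lay far above them, with a log2 fold change of 1.95 ± 0.13 (adjusted p = 7.55e-08) from day 1 to day 2. The summed level of both transporters was 671 ± 44.0 TPM on day 0, 229 ± 24.0 on day 1, 889 ± 22.3 on day 2 and 1267 ± 176 on day 3 (mean ± SD, n = 3), so the lowest sum was that of day 1. *Slc2a3* made up 76.6% ± 2.14 of it on day 0, 19.9% ± 2.59 on day 1 and 23.8% ± 2.18 on day 3.

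Both hexokinase genes, whose products trap glucose in the cell as glucose 6-phosphate, fell. *Hk1* was at 55.8, 57.0 and 47.1 TPM in the 3 day 0 libraries, 15.2, 14.6 and 16.7 on day 1, 13.2, 14.3 and 17.3 on day 2 and 23.4, 23.0 and 25.6 on day 3. No day 0 library overlapped any later one, and the log2 fold change was -1.71 ± 0.085 (adjusted p = 2.92e-12) on day 1, with a partial return of 0.64 ± 0.089 (adjusted p = 3.75e-05) between days 2 and 3. *Hk2* changed less, from 95.4, 91.4 and 96.2 TPM on day 0 to 64.7, 56.8 and 69.3 on day 3 (log2 fold change -0.66 ± 0.091, adjusted p = 7.16e-06). The share of *Hk1* in the hexokinase sum was 36.1% ± 2.84 on day 0, 18.7% ± 0.611 on day 1 and 27.5% ± 1.21 on day 3.

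Phosphofructokinase, which commits sugar to glycolysis, is encoded by 3 genes whose order by level changed. *Pfkp*, the platelet form, was at 87.5, 101 and 76.1 TPM in the 3 day 0 libraries, 24.1, 21.8 and 23.2 on day 1, 8.87, 9.44 and 9.29 on day 2 and 9.82, 11.5 and 10.8 on day 3. All later libraries lay below those of day 0, and the log2 fold changes were -1.87 ± 0.085 (adjusted p = 1.06e-12) on day 1 and -1.44 ± 0.097 (adjusted p = 4.53e-10) on day 2. *Pfkl*, the liver form, was at 59.3, 69.9 and 43.9 TPM in the 3 day 0 libraries, 72.1, 60.6 and 57.9 on day 1, 182, 176 and 188 on day 2 and 156, 140.1 and 139 on day 3. Days 0 and 1 overlapped and days 2 and 3 lay above both, with a log2 fold change of 1.40 ± 0.14 (adjusted p = 4.72e-06) from day 1 to day 2. *Pfkm*, the muscle form, was highest on day 1, at 80.7, 79.9 and 82.5 TPM against 41.7, 41.7 and 38.1 on day 0 (log2 fold change 1.08 ± 0.060, adjusted p = 1.40e-11). Of the summed phosphofructokinase level, *Pfkp* made up 47.4% ± 0.858 on day 0, 13.8% ± 0.387 on day 1, 3.75% ± 0.203 on day 2 and 5.003% ± 0.562 on day 3. Over the same days *Pfkl* went from 30.7% ± 2.62 to 37.8% ± 2.72, 74.1% ± 0.368 and 67.4% ± 1.70. *Pfkfb3*, whose enzyme makes an activator of phosphofructokinase, was at 8.90, 7.26 and 6.82 TPM on day 1 and 19.98, 12.7 and 12.2 on day 2 (log2 fold change 0.85 ± 0.25, adjusted p = 0.0137), with 1 of the day 2 libraries well above the others.

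Among the other enzymes that lead to triose phosphates, *Aldoc*, a minor aldolase here at no more than 25.8 TPM, dipped from 13.7, 21.5 and 13.9 TPM on day 0 to 5.17, 4.601 and 4.94 on day 1 and stood at 21.2, 17.5 and 20.4 on day 2, with log2 fold changes of -1.68 ± 0.19 (adjusted p = 1.62e-06) and 1.89 ± 0.18 (adjusted p = 4.55e-07). *Aldoa*, the main aldolase, was at 1209 to 1594 TPM on day 0 and 1852 to 2141 TPM on day 3 (log2 fold change 0.42 ± 0.083, adjusted p = 2.55e-04). *Tpi1*, triose phosphate isomerase, was at 262, 305 and 213 TPM on day 0 and 676, 589 and 613 on day 3 (log2 fold change 1.18 ± 0.12, adjusted p = 1.74e-06), with most of the difference between days 1 and 2 (0.83 ± 0.12, adjusted p = 6.45e-05). The isomerase *Gpi1* fell by 0.18 on day 1 and rose by 0.37 on day 2 on the log2 scale.

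In lower glycolysis, *Pgk1*, phosphoglycerate kinase, was at 485, 570.1 and 396 TPM in the 3 day 0 libraries, 457, 400.3 and 391 on day 1, 930.3, 966 and 999 on day 2 and 846, 784 and 840.0 on day 3. Days 0 and 1 overlapped and the libraries of days 2 and 3 all lay above them, with a log2 fold change of 1.10 ± 0.10 (adjusted p = 3.23e-07) from day 1 to day 2. *Pkm*, pyruvate kinase, was at 1583, 1617 and 1469 TPM on day 0, 2733, 2667 and 2768 on day 2 and 2275, 2275 and 2325 on day 3, and its log2 fold change was 0.51 ± 0.048 (adjusted p = 3.37e-08) on day 1, 0.26 ± 0.048 (adjusted p = 1.19e-04) on day 2 and -0.29 ± 0.048 (adjusted p = 1.96e-04) on day 3. *Bpgm*, which diverts bisphosphoglycerate, was at 12.3 to 15.8 TPM on day 0 and 29.2 to 32.3 on day 3 (log2 fold change 0.99 ± 0.11, adjusted p = 7.80e-08). *Pgam1*, phosphoglycerate mutase, was called higher on day 1 (log2 fold change 0.16) and lower on day 3 against day 2 (-0.22), and did not pass the test on day 3 against day 0. Its call on day 1 was lost without day 0 library 1, day 0 library 3, day 1 library 1 or day 1 library 2 (adjusted p = 0.0512 to 0.112).

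At the enolase step, the split of counts between near-identical genes is uncertain. *Eno1*, the main form, was at 955, 1054 and 894 TPM on day 0 and 1574, 1562 and 1601 on day 3 (log2 fold change 0.62 ± 0.055, adjusted p = 5.94e-09), but its near-identical copy *Eno1b* was listed at higher levels, and *Eno1* took 37.1% to 44.8% of the sum of both in the 18 libraries. With the counts of both added, an alternative chosen after the data were seen, the log2 fold change was 0.60 on day 3 against day 0. Of the minor forms, *Eno3*, the muscle form, was at 23.5, 21.9 and 23.5 TPM on day 0, 47.6, 51.6 and 48.2 on day 1 and 14.5, 13.6 and 16.3 on day 2, with log2 fold changes of 1.17 ± 0.12 (adjusted p = 5.55e-08) and -1.85 ± 0.12 (adjusted p = 2.85e-10). It rose again from day 2 to day 3 (1.03 ± 0.13, adjusted p = 1.18e-05). The sum of 4 muscle markers was 3.89 to 5.50 TPM on day 1, when *Eno3* was highest, 15.1 to 34.1 TPM on day 2 and 65.3 to 146 TPM on day 3. The part of muscle markers in the result was not tested. *Eno2*, the neuronal form, went the other way at levels of 0.780 to 6.27 TPM, with log2 fold changes of -1.25 and 1.93.

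*Pkm* makes the enzymes M1 and M2 by using either of a pair of mutually exclusive exons, which are shown because the share of the 2 forms rests on the positions where they differ. In GENCODE M21 on GRCm38, the exon of M1 lies at chr9:59675029-59675195 and that of M2 at chr9:59675568-59675734, both on the plus strand and inside the coding sequence. Each is 167 bases long and 64 positions differ, which are in capitals.
M1: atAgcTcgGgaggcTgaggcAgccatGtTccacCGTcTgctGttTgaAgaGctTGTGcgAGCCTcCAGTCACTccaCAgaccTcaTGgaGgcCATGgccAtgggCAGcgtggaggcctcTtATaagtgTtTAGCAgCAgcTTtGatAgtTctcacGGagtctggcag
M2: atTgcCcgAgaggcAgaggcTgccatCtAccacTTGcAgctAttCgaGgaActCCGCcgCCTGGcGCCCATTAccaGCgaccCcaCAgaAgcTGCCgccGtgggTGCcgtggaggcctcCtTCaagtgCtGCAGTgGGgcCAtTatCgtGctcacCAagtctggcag
The transcript with the M2 exon, NM_011099.3, carried nearly all of the level in every library. The share of the M1 transcript, NM_001253883.1, was 4.16%, 3.90% and 3.75% on day 0, 5.62%, 5.25% and 5.78% on day 1, 4.94%, 5.42% and 4.100% on day 2 and 3.76%, 3.67% and 2.50% on day 3. The day 1 libraries lay above those of days 0 and 3, and days 1 and 2 overlapped. In GFP+ cells the M1 share came to 4.73% and 3.44% in wild-type cells, 4.68% and 3.88% in those without *Nprl2* and 5.49% and 4.91% in those without *Tsc2*. These shares are estimates of the quantification program and were not tested.

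At the end of the pathway, *Ldha* and the exporter *Slc16a3* rose and *Ldhb* fell. *Slc16a3*, which encodes the lactate exporter MCT4, was at 25.6, 37.8 and 7.98 TPM in the 3 day 0 libraries, 268, 263 and 225 on day 1, 254, 239 and 261 on day 2 and 279.6, 243 and 244 on day 3. Its day 0 libraries spanned a wide range, yet all 9 later libraries lay above it, and the log2 fold change on day 1 was 3.46 ± 0.39 (adjusted p = 6.82e-05), 11.0-fold, the largest rise of the 33 genes on that day. *Ldha*, the subunit that favours lactate, was at 468, 592 and 317 TPM in the 3 day 0 libraries, 838, 767 and 619.6 on day 1, 1629.8, 1645 and 1507 on day 2 and 1466, 1534 and 1576 on day 3. No day 1 library overlapped day 0 or day 2, and the log2 fold change was 0.76 ± 0.20 (adjusted p = 0.00915) on day 1 and 0.99 ± 0.20 (adjusted p = 0.00214) on day 2. *Ldhb*, the subunit that favours pyruvate, was at 507, 576 and 458 TPM in the 3 day 0 libraries, 287, 285 and 313 on day 1, 254, 258 and 244 on day 2 and 222, 205 and 182 on day 3. The days did not overlap with one another, and the log2 fold change on day 3 against day 0 was -1.43 ± 0.084 (adjusted p = 4.20e-11). *Ldhb* thus went from 53.5% ± 5.04 of the lactate dehydrogenase sum on day 0 to 28.7% ± 4.28 on day 1, 13.7% ± 0.226 on day 2 and 11.8% ± 1.40 on day 3. *Slc16a1*, which encodes the transporter MCT1, was at 64.0 to 66.8 TPM on day 0 and 97.9 to 109 TPM on day 3 (log2 fold change 0.57 ± 0.056, adjusted p = 2.75e-08). *Pdk1* was highest on day 1, at 80.8, 74.7 and 80.9 TPM against 43.0, 41.8 and 48.6 on day 0 and 34.3, 31.7 and 28.5 on day 3, with log2 fold changes of 0.90 ± 0.075 (adjusted p = 5.52e-09) on day 1 and -0.58 ± 0.077 (adjusted p = 1.61e-06) on day 3 against day 0. *Pdk3* rose by 0.37 on the log2 scale over the 3 days, and its share of the sum of both kinases went from 41.0% ± 2.27 to 57.4% ± 2.83.

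**Figure D2:**
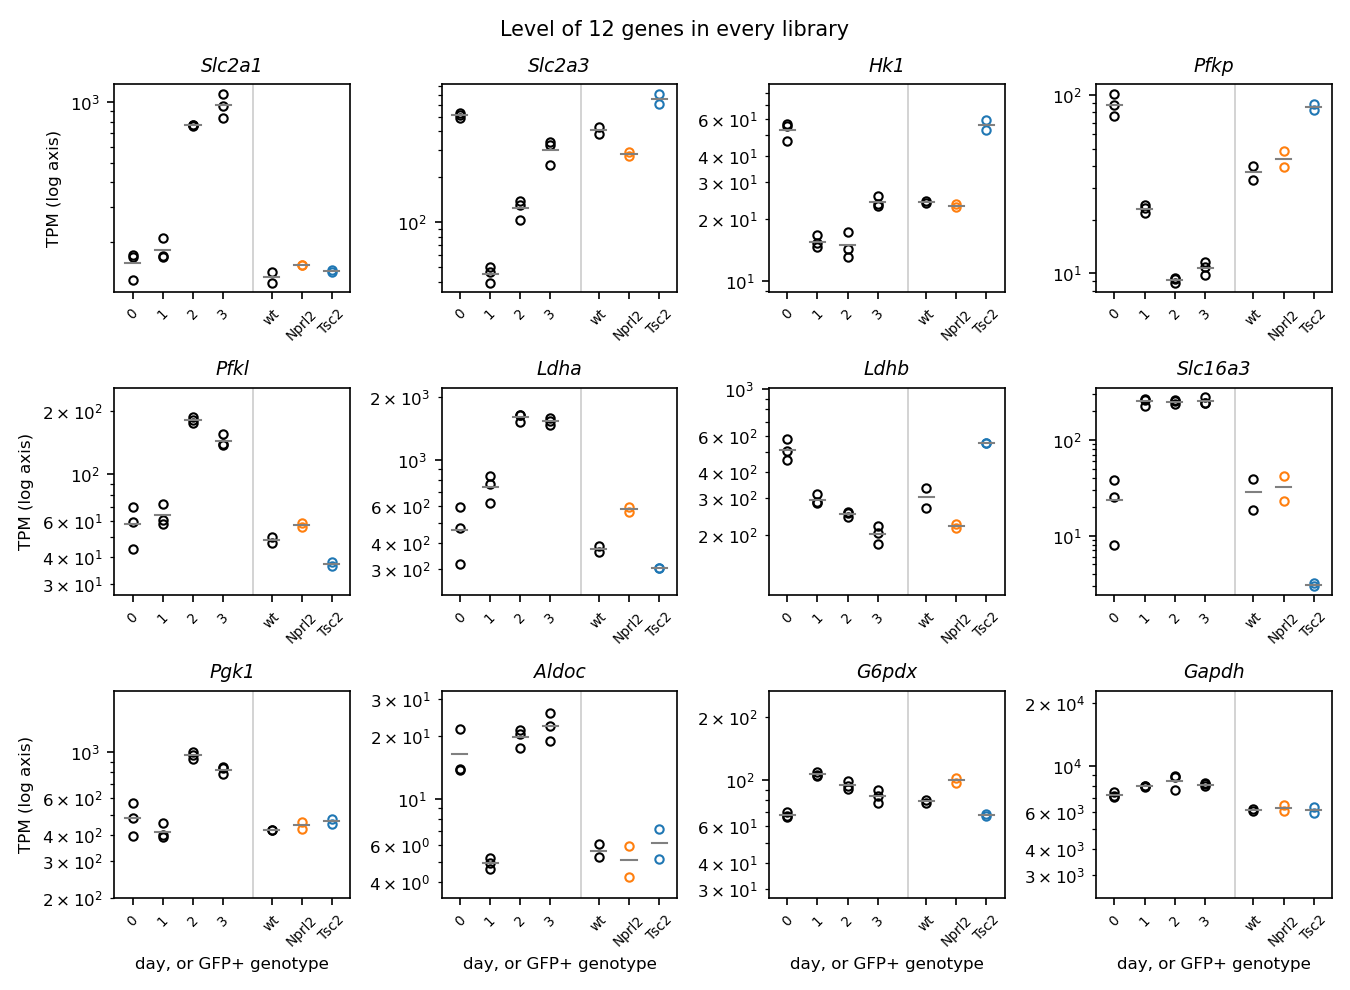
Level in TPM (log axis) of 12 of the genes in every library, by day of differentiation (left of the line) and by genotype of GFP+ cells (right, wt for wild-type). Points are libraries (3 per day, 2 per genotype) and grey bars are group means. *Slc2a3* and *Aldoc* dip on day 1, *Slc2a1*, *Pfkl* and *Pgk1* step up between days 1 and 2, *Slc16a3* steps up on day 1, and *Slc16a3* is near 3 TPM in both *Tsc2* KO libraries.

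All 3 genes of the oxidative branch of the pentose phosphate pathway rose on day 1, and 2 of them fell on day 2. *G6pdx*, the dehydrogenase that opens it, was at 69.9, 67.3 and 66.4 TPM in the 3 day 0 libraries, 109, 106 and 105 on day 1, 99.3, 90.7 and 93.9 on day 2 and 77.2, 84.2 and 89.8 on day 3. Every day 1 library lay above all others of the course, and the log2 fold change was 0.72 ± 0.061 (adjusted p = 5.66e-09) on day 1, -0.28 ± 0.060 (adjusted p = 4.28e-04) on day 2 and -0.22 ± 0.060 (adjusted p = 0.00933) on day 3. *Pgd*, phosphogluconate dehydrogenase, was at 201.7, 200.3 and 191 TPM on day 0, 269.7, 278 and 265 on day 1 and 219, 211 and 226 on day 2, with log2 fold changes of 0.53 ± 0.056 (adjusted p = 1.37e-07) and -0.42 ± 0.055 (adjusted p = 2.45e-06). *Pgls*, the lactonase between both, kept its rise, at 83.1 to 90.2 TPM on day 0 and 149 to 167 TPM on day 3 (log2 fold change 0.79 ± 0.074, adjusted p = 1.30e-08). In the non-oxidative branch, 1 of 4 genes was higher and 3 were lower on day 3 against day 0, beside 35.0% and 35.9% of all genes tested. Transketolase, *Tkt*, rose on day 1 (log2 fold change 0.43 ± 0.049, adjusted p = 3.33e-07), while transaldolase, *Taldo1*, fell over the 3 days (-0.35 ± 0.059, adjusted p = 3.38e-05), as did *Rpe* (-0.31 ± 0.087, adjusted p = 0.00367) and *Rpia* (-0.40 ± 0.15, adjusted p = 0.0212), the epimerase and the isomerase of pentose phosphates. The call of *Rpia* was lost without day 0 library 3, day 3 library 2 or day 3 library 3 (adjusted p = 0.0505 to 0.135), and that of *G6pdx* on day 3 against day 2 without day 2 library 1 or day 3 library 1 (adjusted p = 0.0636 to 0.0775). On day 2 against day 1, 14 of 26 genes of glycolysis and pyruvate fate were higher and 6 lower. Of the 7 pentose phosphate genes, 0 were higher and 5 lower. These counts stand beside 32.5% and 29.6% of all genes tested. The 2 groups were not tested against each other. Of the 5, the call of *Rpia* was lost without day 1 library 3 or day 2 library 3 (adjusted p = 0.0781 to 0.0981), and that of *Tkt* with upper-quartile scaling or on TPM (adjusted p of up to 0.324).

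Some genes of glycolysis are known targets of the hypoxia-inducible factors, which bind ACGTG or GCGTG. The sequence before the start sites of the listed genes was therefore searched for these letters on both strands. Windows of 250 bases before each RefSeq start (GRCm38.p6) were found for 32 of the 33 genes, 46 windows in all. Of these, 35 (76.1%) held a match, beside 38.6% of all 32851 windows of that length, which were not matched for base composition. The share was 71.4% of the 21 windows of genes higher on day 2 against day 1, 81.2% of the 16 windows of genes that were lower and 77.8% of the 9 of genes that were not called. The 21 windows came from 13 genes, the 16 from 11 and the 9 from 8, and these shares were not tested against each other. The part of these factors in the results was not tested. The palindrome CACGTG, which contains ACGTG and is also the E-box bound by MYC, was in 4 of the 46 windows and in 6.02% of all windows. The windows of 5 genes are shown, with matches in capitals. *Slc2a1* and *Pgk1* stepped up on day 2, *Ldha* rose on days 1 and 2, *Slc16a3* rose on day 1 and *Pfkp* fell. In this order but with *Pgk1* second, the windows lie at chr4:119108495-119108744 (plus strand), chrX:106186850-106187099 (plus), chr7:46845554-46845803 (plus), chr11:120948817-120949066 (plus) and chr13:6648772-6649021 (minus).
Slc2a1: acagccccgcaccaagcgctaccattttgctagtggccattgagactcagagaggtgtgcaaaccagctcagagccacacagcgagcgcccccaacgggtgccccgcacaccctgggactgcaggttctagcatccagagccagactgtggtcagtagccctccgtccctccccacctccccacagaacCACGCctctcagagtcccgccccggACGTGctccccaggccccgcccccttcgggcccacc
Pgk1: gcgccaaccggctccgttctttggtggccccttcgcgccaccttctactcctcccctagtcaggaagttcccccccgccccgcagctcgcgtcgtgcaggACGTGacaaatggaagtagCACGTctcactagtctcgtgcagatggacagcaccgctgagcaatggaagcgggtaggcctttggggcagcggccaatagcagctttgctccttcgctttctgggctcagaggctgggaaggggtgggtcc
Ldha: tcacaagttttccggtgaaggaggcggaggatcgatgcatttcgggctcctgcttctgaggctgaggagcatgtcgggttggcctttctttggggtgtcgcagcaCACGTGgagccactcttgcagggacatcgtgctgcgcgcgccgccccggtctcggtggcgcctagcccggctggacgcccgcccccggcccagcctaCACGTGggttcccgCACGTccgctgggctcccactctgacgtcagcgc
Slc16a3: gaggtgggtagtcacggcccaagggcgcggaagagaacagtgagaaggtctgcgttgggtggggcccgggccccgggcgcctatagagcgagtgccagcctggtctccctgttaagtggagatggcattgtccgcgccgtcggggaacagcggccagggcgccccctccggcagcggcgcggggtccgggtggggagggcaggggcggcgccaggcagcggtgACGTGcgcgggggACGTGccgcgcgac
Pfkp: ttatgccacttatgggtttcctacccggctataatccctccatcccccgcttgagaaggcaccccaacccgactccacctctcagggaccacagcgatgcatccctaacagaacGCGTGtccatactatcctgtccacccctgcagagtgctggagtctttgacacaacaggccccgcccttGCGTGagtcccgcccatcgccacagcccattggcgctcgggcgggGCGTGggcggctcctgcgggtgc
*Ldha* has 2 windows. The one not shown, at chr7:46846832-46847081, held 1 match and 0 copies of CACGTG. The window of *Ldha* shown held 5 matches and 2 copies of CACGTG, that of *Pfkp* 3 matches and those of *Slc2a1*, *Pgk1* and *Slc16a3* 2 each. Among genes higher on day 2 whose windows are not shown, *Pfkl* had 1 match and *Tpi1*, *Gpi1*, *Bpgm* and *Eno2* had 0. *Pfkfb3*, *Aldoa*, *Aldoc*, *Eno1* and *Pkm* had a match in 1 or more windows. Overlapping matches on the 2 strands were counted separately, and a match is a description of the sequence and not a site of binding.

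The second question was how the same genes stood in cells without *Nprl2* or *Tsc2*, both of which lack a brake on mTORC1. In *Nprl2* KO against wild-type GFP+ cells, 3 of the 33 genes were higher and 2 lower, where 2.78% of all genes tested were higher and 3.66% lower, and the median log2 fold change of the 33 genes was 0.076. The 5 genes were *Ldha*, *Pfkl* and *G6pdx* (higher) and *Slc2a3* and *Ldhb* (lower). This count depended on the fit, with 9 higher and 4 lower genes when no filter on low counts was applied. All genes then had 735 higher and 932 lower in place of 381 and 502. With 1 library left out, 1 to 3 of the listed genes were higher and 0 to 3 lower. In *Tsc2* KO cells, 10 of the 33 genes were higher and 7 lower, where 14.9% of all genes tested were higher and 14.2% lower, with a median of 0.10. In *Tsc2* KO against *Nprl2* KO cells, 10 of the 33 genes were higher and 9 lower, where 17.5% of all genes tested were higher and 16.6% lower, with a median of -0.00084. On the log2(TPM + 1) scale that last comparison had 11 higher and 8 lower genes, where all genes had 2669 higher and 1656 lower in place of 2408 and 2284. The state of the cells differed as well. The sum of the 7 pluripotency markers was 4086 to 4259 TPM in *Tsc2* KO, 3163 to 3264 in wild-type and 2699 to 3039 in *Nprl2* KO cells, and that of the 4 formative markers was 109.6 to 115, 386 to 462 and 532 to 624 TPM. Their part in the results on these genes was not tested.

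**Figure D3:**
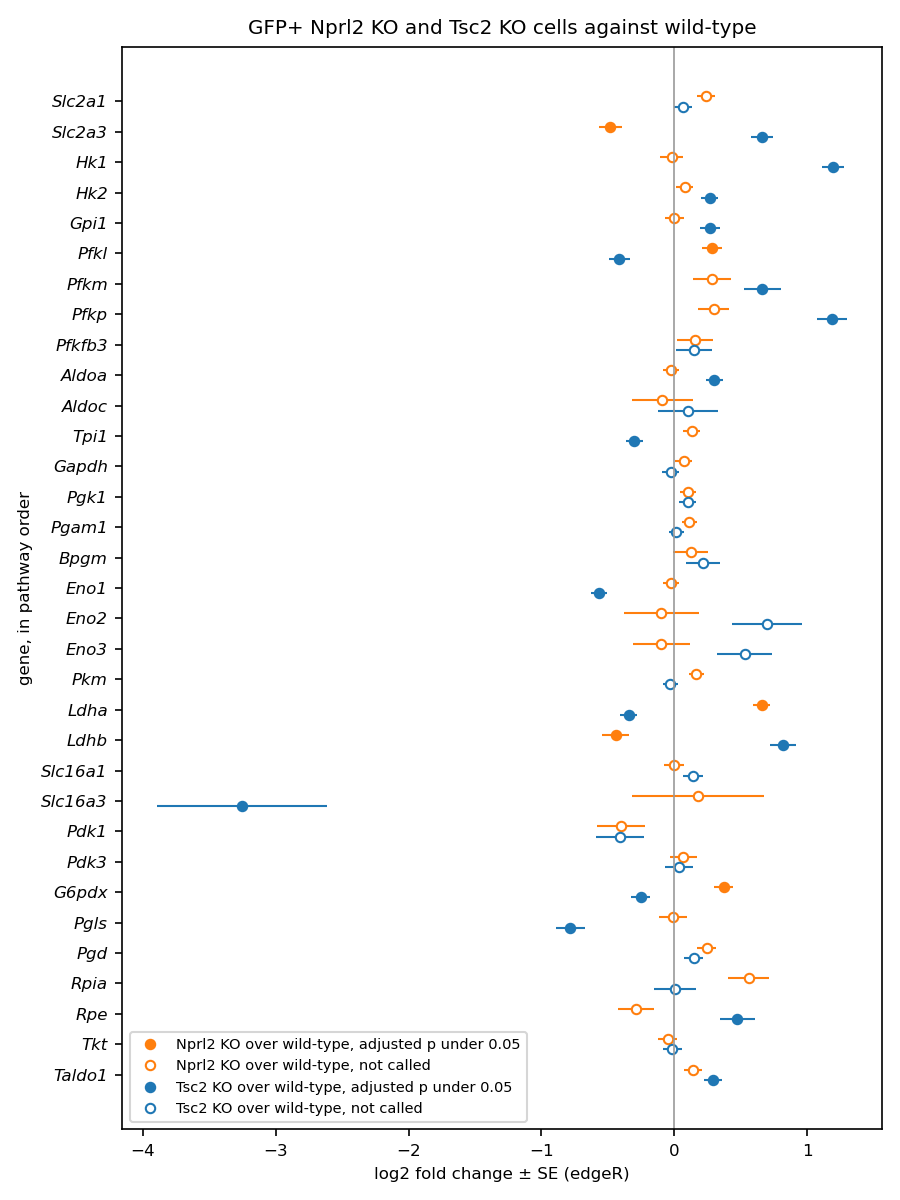
Log2 fold change ± SE of each gene (rows, in pathway order) in GFP+ *Nprl2* KO (orange) and *Tsc2* KO (blue) cells against the same 2 wild-type libraries, from edgeR with 2 libraries per genotype. Filled points are adjusted p under 0.05. *Slc16a3* in *Tsc2* KO lies farthest from 0, and *Slc2a3*, *Pfkl*, *Ldha*, *Ldhb* and *G6pdx* are filled on opposite sides of 0 for the 2 genotypes.

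The lactate genes differed between the KO lines. *Slc16a3* was at 39.0 and 18.3 TPM in wild-type cells, 41.6 and 22.7 without *Nprl2* and 3.00 and 3.17 without *Tsc2*. Both *Tsc2* KO libraries lay below every other GFP+ library, by 9.53-fold against wild-type (log2 fold change -3.25 ± 0.64, adjusted p = 0.0347), and the *Nprl2* KO and wild-type libraries overlapped (0.18 ± 0.50, adjusted p = 0.89). When wild-type library 1 was left out, the change in *Tsc2* KO on the log2 scale was -2.61 (adjusted p = 0.0458). With *Tsc2* KO library 1 or 2 left out the adjusted p was 0.122 or 0.140. Fibroblast markers summed to 179.7 and 48.3 TPM in the *Tsc2* KO libraries. Their part in the result was not tested. *Ldha* was at 385 and 362 TPM in wild-type cells, 562 and 596 without *Nprl2* and 302 and 303 without *Tsc2*. The genotypes did not overlap, and the log2 fold change was 0.66 ± 0.064 (adjusted p = 1.21e-04) in *Nprl2* KO, -0.34 ± 0.064 (adjusted p = 0.00170) in *Tsc2* KO and -1.002 ± 0.064 (adjusted p = 4.20e-07) between the KO lines. *Ldhb* was at 270.3 and 338 TPM in wild-type cells, 216 and 226 without *Nprl2* and 553 and 551 without *Tsc2*. Its levels did not overlap either, with log2 fold changes of -0.44 ± 0.10 (adjusted p = 0.0300), 0.82 ± 0.099 (adjusted p = 2.47e-04) and 1.26 ± 0.10 (adjusted p = 1.30e-05). The call in *Nprl2* KO ended when any library but wild-type library 1 was left out, with adjusted p of 0.0533 to 0.151. *Ldhb* made up 41.3% and 48.3% of the lactate dehydrogenase sum in wild-type cells, 27.8% and 27.5% without *Nprl2* and 64.7% and 64.5% without *Tsc2*, while the sum itself was 677 ± 31.5, 799.8 ± 31.3 and 854 ± 1.08 TPM (mean ± SD, n = 2).

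Of the glucose transporters, *Slc2a3* differed between the KO lines as well. *Slc2a3* was at 381 and 430.2 TPM in wild-type cells, 272 and 292 without *Nprl2* and 604 and 708 without *Tsc2*. The genotypes did not overlap, and the log2 fold change was -0.48 ± 0.085 (adjusted p = 0.00763) in *Nprl2* KO, 0.66 ± 0.085 (adjusted p = 2.30e-04) in *Tsc2* KO and 1.14 ± 0.085 (adjusted p = 3.81e-06) between the KO lines. In *Nprl2* KO the adjusted p was 0.0555 without *Nprl2* KO library 1. *Slc2a1*, at 142 and 126 TPM in wild-type cells, 154 and 154 without *Nprl2* and 146 and 143 without *Tsc2*, passed the test in none of the 3 comparisons. *Hk1* was at 23.9 and 24.1 TPM in wild-type cells, 23.4 and 22.6 without *Nprl2* and 53.3 and 59.3 without *Tsc2*. The *Tsc2* KO libraries stood alone, at 2.29 times wild-type (log2 fold change 1.20 ± 0.083, adjusted p = 1.87e-06) and with a log2 fold change of 1.21 ± 0.082 (adjusted p = 7.59e-07) against *Nprl2* KO. *Hk2* was higher in *Tsc2* KO by a smaller amount (0.27 ± 0.066, adjusted p = 0.0101), a call that was lost without wild-type library 2, *Tsc2* KO library 1 or *Tsc2* KO library 2 (adjusted p = 0.0510 to 0.0670). *Hk1* made up 52.1% and 54.6% of the hexokinase sum in *Tsc2* KO against 36.8% and 38.3% in wild-type cells.

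The phosphofructokinase genes moved in different directions in *Tsc2* KO cells. *Pfkp* was at 40.0 and 33.6 TPM in wild-type cells, 48.6 and 39.3 without *Nprl2* and 89.0 and 82.8 without *Tsc2*. Both *Tsc2* KO libraries lay above the others, with a log2 fold change of 1.19 ± 0.11 (adjusted p = 7.93e-05). *Pfkm* was higher as well (0.66 ± 0.14, adjusted p = 0.0104), and *Pfkl*, at 49.9 and 46.9 TPM in wild-type cells, 58.5 and 55.9 without *Nprl2* and 37.9 and 36.5 without *Tsc2*, was lower (-0.41 ± 0.077, adjusted p = 0.00167). The small rise of *Pfkl* in *Nprl2* KO (0.28 ± 0.075, adjusted p = 0.0452) did not pass the test with DESeq2 (adjusted p = 0.120), on TPM or with any library left out (0.0669 to 0.206). *Pfkl* made up 31.9% and 36.4% of the phosphofructokinase sum in wild-type cells, 32.5% and 35.2% without *Nprl2* and 17.0% and 17.4% without *Tsc2*, and *Pfkp* 25.6% and 26.1%, 27.0% and 24.8% and 39.9% and 39.5%.

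**Figure D4:**
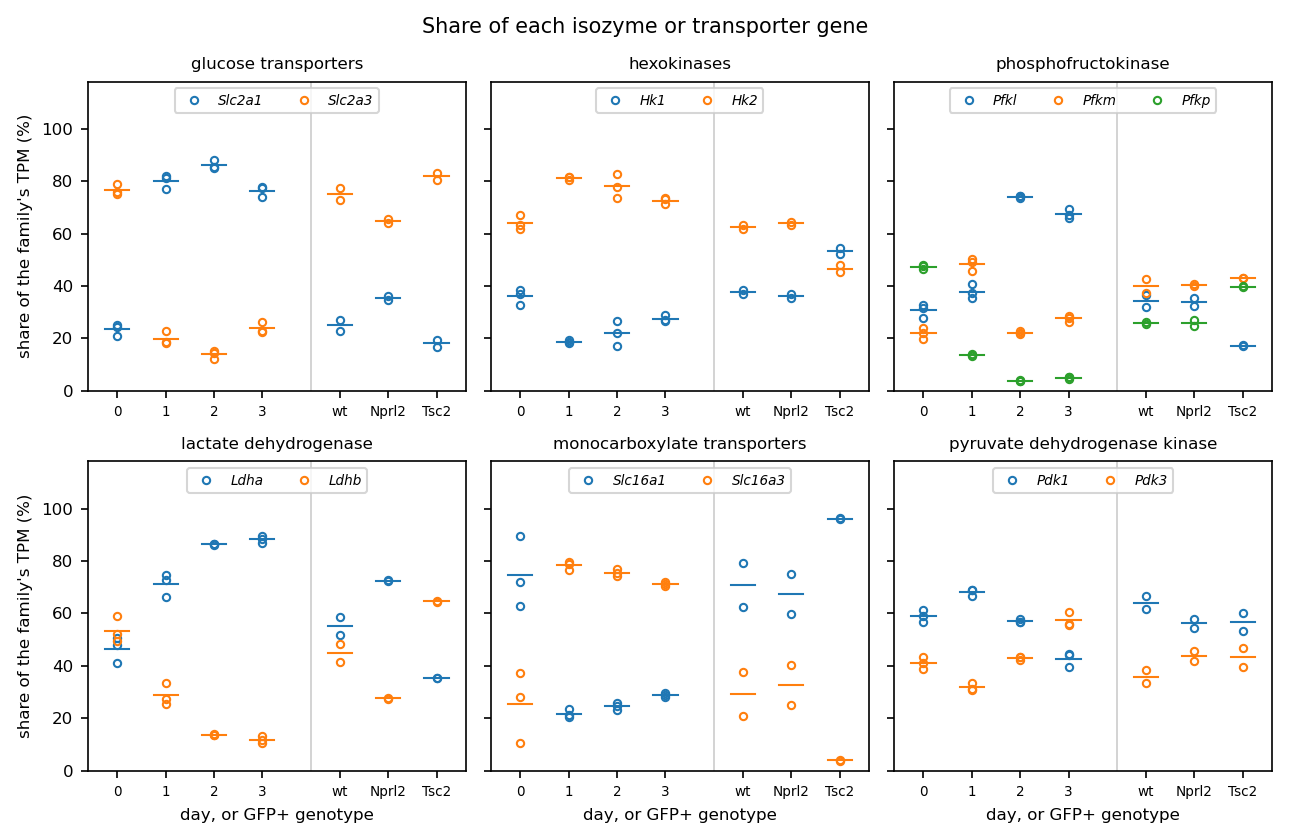
Share of each gene in the summed TPM of its family (percent, vertical axis) by day (left of the line) and by genotype of GFP+ cells (right). Points are libraries and bars are group means. *Ldha*, *Slc2a1* and *Pfkl* take larger shares on days 2 and 3 than on day 0 and smaller shares in *Tsc2* KO than in wild-type cells, while the monocarboxylate transporters spread widely within day 0, wild-type and *Nprl2* KO.

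Of the remaining steps of glycolysis, the 8 genes from *Gapdh* to *Pkm* had 1 call between them, a lower one, in *Tsc2* KO, beside 14.9% and 14.2% of all genes tested (higher and lower). They had none in *Nprl2* KO, beside 2.78% and 3.66%. In *Tsc2* KO against *Nprl2* KO cells, 2 of the 8 were higher (*Eno2* and *Eno3*) and 2 lower (*Eno1* and *Pkm*), beside 17.5% and 16.6%. The calls of *Eno2*, *Eno3* and *Pkm* between the KO lines were lost under 1 or more other fits. *Eno1* was called in *Tsc2* KO against wild-type, at 1046 and 1107 TPM in wild-type cells, 1019.9 and 1059 without *Nprl2* and 741 and 752 without *Tsc2* (log2 fold change -0.57 ± 0.062, adjusted p = 4.32e-05), and with *Eno1b* added the log2 fold change was -0.56. No gene of the 8 was called in *Nprl2* KO with edgeR, where 1, *Pkm*, had an unadjusted p under 0.05 and DESeq2 called 0. *Aldoa* (0.30 ± 0.061, adjusted p = 0.00288) and *Gpi1* (0.27 ± 0.073, adjusted p = 0.0162) rose and *Tpi1* (-0.30 ± 0.064, adjusted p = 0.00410) fell in *Tsc2* KO against wild-type cells, and the call of *Gpi1* was lost without wild-type library 1 or *Tsc2* KO library 2 (adjusted p = 0.157 to 0.165).

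In the oxidative pentose phosphate branch, *G6pdx* was at 77.5 and 80.4 TPM in wild-type cells, 103 and 96.8 without *Nprl2* and 67.4 and 68.4 without *Tsc2*. The 3 genotypes did not overlap, with log2 fold changes of 0.37 ± 0.071 (adjusted p = 0.00896) in *Nprl2* KO, -0.25 ± 0.072 (adjusted p = 0.0205) in *Tsc2* KO and -0.63 ± 0.071 (adjusted p = 4.07e-05) between the KO lines. The call in *Nprl2* KO was lost without wild-type library 1 (adjusted p = 0.0833) or *Nprl2* KO library 1 (0.0680), and that in *Tsc2* KO without wild-type library 2, *Tsc2* KO library 1 or *Tsc2* KO library 2 (adjusted p = 0.0822 to 0.123). *Pgls* was at 76.2 and 78.1 TPM in wild-type cells, 81.1 and 73.6 without *Nprl2* and 45.8 and 47.0 without *Tsc2*, and only *Tsc2* KO was called against wild-type (-0.78 ± 0.11, adjusted p = 2.59e-04). In the non-oxidative branch, *Taldo1* (0.29 ± 0.066, adjusted p = 0.00574) and *Rpe* (0.47 ± 0.13, adjusted p = 0.0284) were higher in *Tsc2* KO. These calls were lost without wild-type library 2 (adjusted p = 0.0634) for *Taldo1* and without wild-type library 1, *Tsc2* KO library 1 or *Tsc2* KO library 2 (adjusted p = 0.1004 to 0.101) for *Rpe*. *Rpe*, at 65.2 and 83.9 TPM in wild-type cells, 54.0 and 64.6 without *Nprl2* and 106 and 106 without *Tsc2*, lies on chromosome 1, whose 747 tested genes lay at a median of 0.37 (log2 fold change) in the same comparison, where the other chromosomes that hold genes of the list had medians of -0.070 to 0.037. The part of the chromosome in the result was not tested. *Rpia* was at 10.9 and 10.3 TPM in wild-type cells, 15.3 and 15.5 without *Nprl2* and 11.0 and 10.9 without *Tsc2*, was called between the KO lines (log2 fold change -0.55 ± 0.15, adjusted p = 0.0126) and did not pass the test against wild-type. The former call was lost without *Nprl2* KO library 2, *Tsc2* KO library 1 or *Tsc2* KO library 2 (adjusted p = 0.0538 to 0.0813).

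The time course and the genotypes share no library, so the direction of a gene can be read side by side in both. Of the 33 genes, 17 were called both on day 3 against day 0 and in *Tsc2* KO against wild-type, and 14 of them went in opposite directions (82.4%), namely *Slc2a3*, *Hk1*, *Hk2*, *Pfkp*, *Ldhb*, *Rpe* and *Taldo1*, which were lower on day 3 and higher in *Tsc2* KO, and *Pfkl*, *Tpi1*, *Eno1*, *Ldha*, *Slc16a3*, *G6pdx* and *Pgls*, which were higher on day 3 and lower in *Tsc2* KO. The exceptions were *Gpi1*, *Pfkm* and *Aldoa*, higher in both. The call of *Gpi1* on day 3 was lost without day 0 library 1, day 3 library 1 or day 3 library 2 (adjusted p = 0.0522 to 0.0815). The calls of *Slc16a3*, *Hk2*, *Gpi1*, *G6pdx*, *Rpe* and *Taldo1* in *Tsc2* KO were those lost above with 1 library left out. This was also the prevailing pattern over all genes tested, of which 2241 of 3114 (72.0%) went in opposite directions. Against day 1 in place of day 3, it was 12 of 14 of the listed genes and 80.9% of all genes. Spearman's rho between the 2 fold changes was -0.47 across the 33 genes and -0.28 across 13414 genes, as a description across genes, which are not independent and share their libraries. In *Nprl2* KO, 5 genes were called both there and on day 3, and all went in the same direction in both (*Slc2a3*, *Pfkl*, *Ldha*, *Ldhb* and *G6pdx*), where 279 of 698 of all genes (40.0%) went in opposite directions. Of these, the calls of *Slc2a3*, *Pfkl*, *Ldhb* and *G6pdx* in *Nprl2* KO were those lost above with 1 library left out. The 2 KO comparisons use the same wild-type libraries. All 5 of these genes were called on opposite sides of wild-type in the 2 KO lines. The direct comparison of the KO lines, in which all 5 were also called, comes from the same fit and adds no separate evidence.

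**Figure D5:**
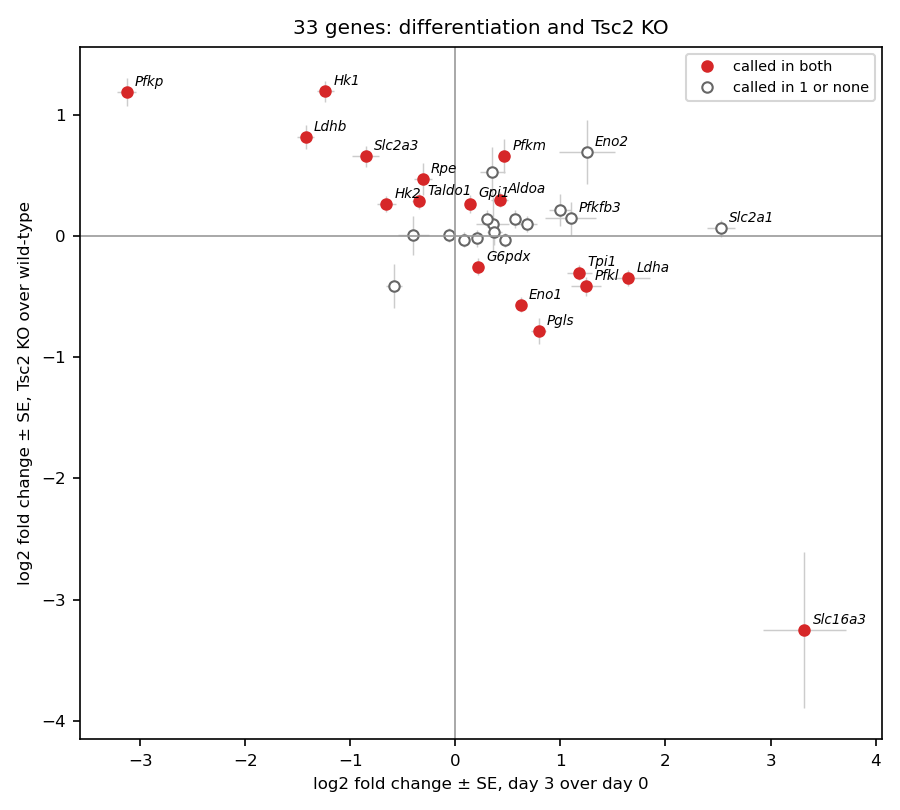
Log2 fold change ± SE of the 33 genes on day 3 against day 0 (horizontal axis, 3 libraries per day) and in GFP+ *Tsc2* KO against wild-type cells (vertical axis, 2 libraries per genotype). Red points were called in both. Of these 17 genes, 14 lie in the upper left or lower right part, where the 2 fold changes have opposite signs, and 3 in the upper right.

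A second list of 47 genes held further genes of sugar and pyruvate metabolism, of which 40 were tested in the time course and 37 in GFP+ cells. On day 1 against day 0, 10 were higher and 14 lower, beside 30.1% and 30.8% of all genes tested. On day 2 against day 1, 10 were higher and 12 lower, beside 32.5% and 29.6%. On day 3 against day 0, 10 were higher and 20 lower, beside 35.0% and 35.9%, with a median log2 fold change of -0.21. *Mpc1*, a subunit of the mitochondrial pyruvate carrier, was at 57.2, 67.5 and 58.8 TPM on day 1 and 15.7, 22.0 and 21 on day 2 (log2 fold change -1.76 ± 0.12, adjusted p = 4.60e-10), and *Pdha1*, a subunit of pyruvate dehydrogenase, was at 249.6, 264 and 258 TPM on day 0 and 149, 145 and 154 on day 3 (-0.87 ± 0.057, adjusted p = 6.04e-11). *Emb*, which encodes a partner protein of monocarboxylate transporters, was at 50.8 to 56.4 TPM on day 0 and 281 to 289 on day 3 (2.31 ± 0.056, adjusted p = 3.62e-17), and at 119 and 96.0 TPM in wild-type cells and 49.2 and 46.4 without *Tsc2* (-1.21 ± 0.093, adjusted p = 4.59e-06). *Pck2*, the mitochondrial enzyme that makes phosphoenolpyruvate, dipped on day 1 as *Slc2a3* did, with 28.8, 35.4 and 28.4 TPM on day 0, 3.77, 4.01 and 3.75 on day 1 and 41.1, 39.5 and 42.1 on day 2 (-2.94 ± 0.097, adjusted p = 6.91e-15 on day 1 and 3.30 ± 0.096, adjusted p = 9.41e-15 on day 2). It was at 9.51 and 6.97 TPM in wild-type cells, 26.4 and 26.4 without *Nprl2* and 29.4 and 27.2 without *Tsc2*, called in both KO lines (1.71 ± 0.13, adjusted p = 2.87e-05 and 1.73 ± 0.13, adjusted p = 3.14e-06). In *Tsc2* KO against wild-type, 11 were higher and 2 lower of 37, beside 14.9% and 14.2% of all genes, and both subunits of the pyruvate carrier were among the higher genes (*Mpc1* 0.64, *Mpc2* 0.77). In *Nprl2* KO, 2 were higher and 1 lower, beside 2.78% and 3.66%.

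The third list held 29 regulators of these pathways and further hypoxia-responsive genes, all of which were tested. 7 were higher and 10 lower on day 1, beside 30.1% and 30.8% of all genes tested. On day 2 against day 1, 15 were higher and 9 lower, beside 32.5% and 29.6%, and the median log2 fold change was 0.46. *Vegfa*, an angiogenic factor induced by low oxygen, was at 20.2, 26.8 and 13.0 TPM on day 0, 3.34, 2.80 and 2.06 on day 1 and 22.0, 20.1 and 24.3 on day 2 (log2 fold change 2.88 ± 0.29, adjusted p = 1.09e-05 on day 2). *Ddit4*, an inhibitor of mTORC1 induced by stress, was at 41.1, 31.3 and 27.2 TPM on day 1 and 242, 167 and 193 on day 2 (2.48 ± 0.33, adjusted p = 1.85e-04). *Vegfa* and *Ddit4* were among the 15 higher genes, and *Hif1a* and *Myc* among the 9 lower ones. The part of any of them in the changes of the 33 genes was not tested. On day 0, *Ddit4* was at 36.5, 52.0 and 18.0 and *Bnip3*, a mitophagy receptor induced by low oxygen, at 53.9, 91.9 and 26.8 TPM, both lowest in library 3 and highest in library 2, as were *Ldha* and *Slc16a3*. That order was common on the list, with 23 of the 33 genes lowest in library 3 and 21 highest in library 2. *Pfkp* and *Ldhb*, which fell over the course, also had it. The share of all genes with this order was not counted, so it is not shown to be particular to the list. *Hif1a* itself was at 55.0 to 62.6 TPM on day 0 and 92.2 to 96.6 TPM on day 1 (0.74 ± 0.061, adjusted p = 4.10e-09), and fell slightly on day 2 (-0.25 ± 0.060, adjusted p = 0.00151). *Myc*, an activator of many glycolytic genes, peaked on day 1 as *G6pdx* did, with 13.9, 11.8 and 30.3 TPM on day 0, 61.5, 61.8 and 71.0 on day 1 and 26.7, 30.9 and 26.3 on day 2 (1.87 ± 0.31, adjusted p = 6.10e-04 on day 1 and -1.32 ± 0.30, adjusted p = 0.00391 on day 2). In *Tsc2* KO against wild-type, 9 were higher and 3 lower, beside 14.9% and 14.2% of all genes. *Mycn* was at 181 and 169 TPM in wild-type cells, 200.6 and 184 without *Nprl2* and 36.3 and 32.6 without *Tsc2*, lower in *Tsc2* KO by 5.21-fold (-2.38 ± 0.082, adjusted p = 9.39e-09). In *Nprl2* KO, 2 were higher, *Vegfa* (0.87 ± 0.17, adjusted p = 0.00917) and *Ddit4* (1.74 ± 0.28, adjusted p = 0.0300), and none was lower with edgeR (beside 2.78% and 3.66% of all genes), where 2 of 29 had an unadjusted p under 0.05 in that direction and DESeq2 called 0.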

How the data were processed

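RNA-seq was analysed in 12 libraries of days 0 to 3 and 6 libraries of GFP+ cells, grouped by the labels. The deposited files hold, per transcript, estimated counts and TPM that the authors made with kallisto 0.42.1 on mm10 (submitters' processing notes), and a table of TPM per gene. Files of DESeq2 comparisons hold the authors' fold changes and p-values and were not used. Of 34079 transcripts, 33713 were assigned to genes through RefSeq GRCm38.p6 and 192 through GENCODE M21, and 174 (1.65% to 3.57% of counts) were left out, giving 24296 genes. kallisto shares reads between similar transcripts by estimation, so splits between near-identical copies and isoforms are uncertain. Counts were summed per gene, rounded to whole numbers, filtered (filterByExpr), scaled by TMM and tested with edgeR 4.0.16 (R 4.3.3), separately for the time course and the GFP+ cells, at an adjusted p of 0.05. The SE of a fold change was derived from the test, as the absolute log2 fold change divided by the square root of the F statistic. The authors' TPM served for levels and shares. Alternatives were DESeq2 1.42.0, upper-quartile scaling, no filter or at least 10 counts in every library, fits of only 2 groups, the replicate number as a block, limma 3.58.1 on log2(TPM + 1) or log2(TPM + 0.1), subtraction of chromosome medians and each library left out. Scripts were tested on simulated data. Any of the 33 genes could be named, with values per library for called genes and those a statement turns on. Genes of the other lists were named only where called. The members and lists were chosen with earlier results of these data known. No library was a copy of another by its counts. Promoter windows come from RefSeq GRCm38.p6 and exons from GENCODE M21.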

Additional observations from a re-analysis of the deposited data

How the results depend on the processing

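No called gene changed direction under any alternative run. The calls that held under every other fit, and those that held with each library left out, were 21 and 22 of 25 on day 1 against day 0, 23 and 23 of 25 on day 2 against day 1, 12 and 10 of 13 on day 3 against day 2, 29 and 27 of 30 on day 3 against day 0, 3 and 1 of 5 for *Nprl2* KO, 16 and 11 of 17 for *Tsc2* KO and 14 and 12 of 19 between the KO lines. *Ldha* was the call in *Nprl2* KO that held throughout, while on day 1 against day 0 it was lost when only those 2 days were fitted (adjusted p = 0.0699). In *Nprl2* KO, 9 genes were higher and 4 lower without a filter, and 1 was lower with only the 2 groups fitted. With 1 library left out, 1 to 3 were higher and 0 to 3 lower, with 0 lower without *Nprl2* KO library 1. With the replicate number as a block, 8 were higher and 4 lower, where all genes had 948 and 1124. Same-numbered GFP+ libraries deviated together (correlations 0.19 to 0.37) and those of the time course did not regularly (-0.22 to 0.27), and the labels tie no number to a shared culture or day. On day 3 against day 2, 4 to 9 genes were lower with 1 library left out, and 4 without day 2 library 1 or day 3 library 1. *Slc16a3* in *Nprl2* KO turned from 0.18 to -0.24 without wild-type library 2 and -0.32 without *Nprl2* KO library 1, within a range of -0.32 to 0.82 with 1 library left out. Median log2 fold changes of the 33 genes on log2(TPM + 1) and log2(TPM + 0.1) were 0.14 and 0.14 on day 1 against day 0, 0.23 and 0.23 on day 2 against day 1, 0.00028 and 0.00092 on day 3 against day 2, 0.44 and 0.46 on day 3 against day 0, 0.040 and 0.041 for *Nprl2* KO, 0.14 and 0.14 for *Tsc2* KO, and 0.067 and 0.074 between the KO lines. Upper-quartile scaling gave 0.20 on day 2 against day 1 and 0.40 on day 3 against day 0, and subtracting chromosome medians 0.023 between the KO lines. With 1 library left out the median was -0.063 to -0.0014 on day 3 against day 2, 0.31 to 0.42 on day 3 against day 0, 0.051 to 0.096 for *Nprl2* KO, 0.066 to 0.18 for *Tsc2* KO and -0.0034 to 0.021 between the KO lines. From counts in place of TPM, the change in share was 41.0 percentage points for *Pfkl* and -46.3 for *Pfkp* on day 3 against day 0 and 16.1 for *Pfkp* in *Tsc2* KO. The cause of these differences was not tested. With 2 libraries per genotype, small changes in GFP+ cells may have been missed.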
